A study of Mus musculus with 122 samples.

Results

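Interferon-stimulated genes are the genes that a cell switches on after interferon binds its receptor, and they were followed here in sorted mouse lung macrophages and monocytes with altered C/EBPβ or without Csf2rb. C/EBPβ is the transcription factor encoded by Cebpb, and Csf2rb encodes the receptor chain shared by GM-CSF and its relatives. The genes were chosen by name, as a list of 46 symbols with no threshold on their values but with earlier results of these data known. They were looked up by gene name in the 3 deposited gene count tables. Of these 46, 45 were found once in each table, among 22050 genes per table. Mx2 was not analysed here.

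Type I interferons act through the receptor chains Ifnar1 and Ifnar2 and the kinases Jak1 and Tyk2, which phosphorylate Stat2. With Irf9 it takes part in the complex ISGF3, which binds a promoter element called the interferon-stimulated response element (ISRE). Many genes induced by interferon gamma carry another element, the gamma-activated site (GAS). Alveolar macrophages are the resident phagocytes of the airspaces; they clear surfactant, depend on GM-CSF, and carry this programme as part of antiviral defence.

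The adult alveolar macrophages came from lung lavage. Of the adult sets, 3 compared Cebpb null mice (strain C/EBPb tm1Pfj, mixed background) with +/+ controls: one split the null cells by surface CD11b (4 control, 4 CD11b low and 4 CD11b high libraries), one used females of 2 facilities and males, and one was made to match the chromatin libraries (3 control, 3 null). The facility set held 2 control, 3 heterozygous and 2 null libraries of females from facility 1, 3 control and 2 null libraries of females from facility 2, and 2 control and 2 null libraries of males, whose facility the labels do not give. Floxed Cebpb (Cebpbtm1.1Elgaz/J) was deleted with LyzM Cre/Cre, which acts in myeloid cells (2 libraries against 2 Cebpb flox/flox controls without Cre), or with CD11c +/Cre, which acts in CD11c-expressing cells (4 libraries against 3 CD11c +/Cre controls without floxed alleles). Lip mice (C/EBPtm1.2Acle, mixed background) express only LIP, the truncated C/EBPβ isoform. They gave 4 CD11b low and 4 CD11b high libraries against 3 +/+ libraries, and 4 against 4 in a chromatin-matched set.

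Cells from digested embryonic day 18 (E18) lungs were premature alveolar macrophages of Cebpb null embryos (4 libraries against 3 wild type) and of Csf2rb null embryos (Csf2rbtm1Cgb/J, C57BL/6; 3 against 4), and Ly6Chi fetal monocytes of Cebpb null embryos (4 against 3). In the chimeras, irradiated CD45.1/2 mice received wild-type CD45.1 marrow (33%) mixed with CD45.2 marrow of CD11c-Cre Cebpb fl/fl mice (66%). Mutant and wild-type donor cells thus shared a lung. The digested lungs of the chimeras were sorted 5 weeks (4 mutant, 3 wild-type libraries) and 10 weeks after transfer (3 and 4). Irradiated hosts also keep some cells of their own, which carry both CD45 alleles. The labels call the libraries of a group separate samples without naming the animals, so p-values measure the spread between these libraries.

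Promoter letters were read from RefSeq (GRCm38.p6), which held 250 bases before to 50 bases after the start of 34 of the 46 genes. An ISRE core was searched as GAAANNGAA on both strands and a GAS core as TTCNNNGAA, a palindrome counted once. A match is a description of the letters and not a measured binding site. The ISRE core was present in 22 of the 34 genes (64.7%, 95% exact Clopper-Pearson interval 46.5 to 80.3), against 9.76% of all 27025 genes with a promoter window and 8.98% of the 9283 of them that passed the count filter in the RNA data. A stricter core, the same letters followed by one more A, was present in 20 of 34 (58.8%) against 3.99%. The GAS core was present in 8 of 34 (23.5%, 10.7 to 41.2) against 9.55%. The median position of the 40 ISRE matches was 73 bases upstream of the start (-73), and 34 of the 40 lay upstream. Since the window held 250 bases before the start and only 50 after it, most matches would lie upstream wherever in it they fell. Overlapping matches and those of separate promoters of a gene were counted each.

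Shown first are the 200 bases before the start of 5 genes whose promoters held matches, printed 5′ to 3′ on the gene's own strand with the matches in capitals. Isg15 encodes a ubiquitin-like protein that is attached to other proteins, Ifit3 a partner of the RNA-binding Ifit1, and Slfn5 a member of the Schlafen family. Igtp is an immunity-related GTPase, and Bst2 (tetherin) holds budding virus at the cell surface.
Isg15 (chr4:156200819-156201018, minus strand, 3 overlapping ISRE cores): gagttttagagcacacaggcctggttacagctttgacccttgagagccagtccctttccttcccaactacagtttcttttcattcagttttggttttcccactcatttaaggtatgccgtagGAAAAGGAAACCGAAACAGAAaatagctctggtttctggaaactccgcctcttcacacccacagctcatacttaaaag
Ifit3 (chr19:34583329-34583528, plus strand, 3 ISRE cores): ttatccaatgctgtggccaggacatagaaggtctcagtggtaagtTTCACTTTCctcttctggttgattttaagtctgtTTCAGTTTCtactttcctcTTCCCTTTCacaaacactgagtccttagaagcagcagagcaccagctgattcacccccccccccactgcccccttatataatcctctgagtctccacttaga
Slfn5 (chr11:82951902-82952101, plus strand, 2 ISRE cores): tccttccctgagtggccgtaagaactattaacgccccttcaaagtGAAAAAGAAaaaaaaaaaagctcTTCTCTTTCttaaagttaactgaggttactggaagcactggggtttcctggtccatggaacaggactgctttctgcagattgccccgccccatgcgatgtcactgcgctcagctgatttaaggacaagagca
Igtp (chr11:58199356-58199555, plus strand, 1 ISRE and 1 GAS core): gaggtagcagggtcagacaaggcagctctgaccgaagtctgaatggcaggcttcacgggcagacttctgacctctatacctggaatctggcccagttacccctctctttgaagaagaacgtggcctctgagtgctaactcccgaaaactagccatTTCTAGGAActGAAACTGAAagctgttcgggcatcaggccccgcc
Bst2 (chr8:71537473-71537672, minus strand, 2 ISRE cores and 1 GAS core): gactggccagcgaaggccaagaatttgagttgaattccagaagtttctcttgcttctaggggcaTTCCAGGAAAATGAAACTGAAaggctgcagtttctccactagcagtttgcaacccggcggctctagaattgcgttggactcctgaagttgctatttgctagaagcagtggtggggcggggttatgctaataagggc

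The same stretch follows for 3 genes in which neither core was found in these bases. Oasl1 and Oasl2 are 2′-5′ oligoadenylate synthetase-like proteins and, with Slfn5 above, were called higher in the most Cebpb deletions below. Irf7 is the transcription factor that amplifies type I interferon production.
Oasl1 (chr5:114923040-114923239, plus strand): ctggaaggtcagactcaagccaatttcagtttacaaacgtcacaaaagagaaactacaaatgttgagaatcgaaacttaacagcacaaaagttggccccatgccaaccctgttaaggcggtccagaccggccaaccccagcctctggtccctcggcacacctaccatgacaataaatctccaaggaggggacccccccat
Oasl2 (chr5:114896734-114896933, plus strand): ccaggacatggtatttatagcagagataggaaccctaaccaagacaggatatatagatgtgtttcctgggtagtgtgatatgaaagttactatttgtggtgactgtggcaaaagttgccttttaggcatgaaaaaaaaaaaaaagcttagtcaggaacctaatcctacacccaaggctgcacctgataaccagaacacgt
Irf7 (chr7:141266425-141266624, minus strand): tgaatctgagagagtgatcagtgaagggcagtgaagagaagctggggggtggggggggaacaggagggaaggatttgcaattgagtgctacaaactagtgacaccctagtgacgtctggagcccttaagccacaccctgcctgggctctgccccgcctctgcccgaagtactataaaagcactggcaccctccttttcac

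Total counts ran from 642269 to 17834909 over the 99 RNA libraries, so that 3 counts, the limit that a count of 0 allows, stood for 0.168 to 4.67 CPM, counts scaled to a common library size. All levels below are CPM of single libraries after TMM scaling. They are compared only between libraries of the same gene, and differences are log2 fold changes with their standard error and edgeR's adjusted p. In every Cebpb deletion the Cebpb level was lower than in all controls of its set, with at most 157 CPM in a null library, whereas it was not called lower in any Lip or Csf2rb null comparison. Csf2rb itself was at 293, 359.6 and 323 CPM in Csf2rb null cells and 971, 763, 1175 and 1083 in their controls. The list of 10 alveolar macrophage markers was lower and a list of 7 markers of interstitial or marrow-derived macrophages was higher in most deletions, and these values stand beside each result, where the labelled cell type of the mutants rests on the sort. In bulk libraries, fewer cells with a transcript and less of it per cell cannot be told apart.

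The 5 interferon genes looked up were nearly absent. Ifna1 and Ifna4 had 0 counts in all 99 libraries, Ifna2 had 11 counts in 3 libraries, Ifnb1 58 counts in 13 libraries and Ifng 28 counts in 7. All Ifng counts lay in the 5-week chimeras, 10 in 3 wild-type and 18 in 4 mutant libraries. Ifnb1 had 14 counts in 3 wild-type and 14 in 3 mutant libraries there, and both genes had 0 counts at 10 weeks. None of these 5 genes had a count in the null libraries of facility 2 or of Csf2rb, which allows up to 3 counts per library. In the chromatin-matched null set, 1 of the 3 null libraries held 7 counts of Ifnb1 and the controls none, and 1 facility 2 control held 2.

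The summed level of the 45 genes gives an overview. It lay between 2064 and 2733 CPM in every control library of the first null set and the facility set. Among null cells it was 7910 and 14040 CPM at facility 2 and 10020, 6304 and 17010 CPM in the chromatin-matched set. Csf2rb null premature macrophages reached 18080, 13900 and 24480 CPM. Facility 1 null females were at 1988 and 2602 CPM, overlapping with their controls and heterozygotes (1977 to 2553 CPM). Ly6Chi fetal monocytes were at 15900 to 22690 CPM in wild-type and 16630 to 21320 CPM in Cebpb null embryos.

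**Figure D1:**
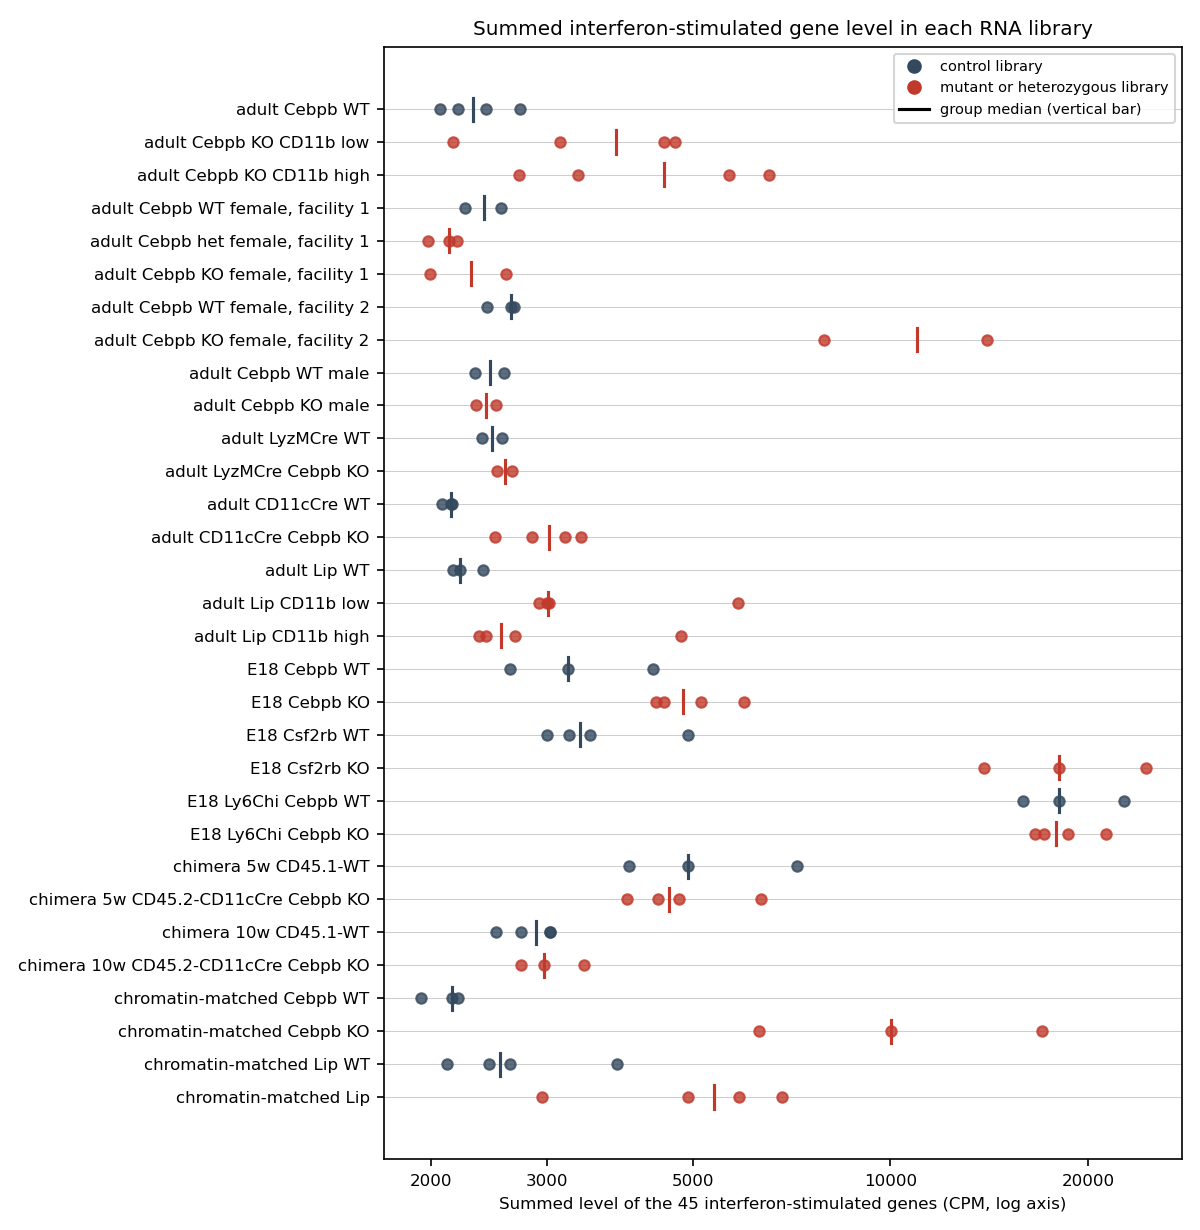
Summed level of the 45 interferon-stimulated genes (CPM, log axis) in each RNA library, with each point 1 library, blue for controls and red for mutants or heterozygotes, and a bar at the group median. Facility 2 null, chromatin-matched null and Csf2rb null libraries lie above all of their own controls. So do, by less, those of E18 Cebpb null (lowest 4394 against highest control 4352 CPM), CD11c Cre (2503 against 2148) and CD11b low Lip cells (2915 against 2394). The fourth Lip library of each CD11b gate stands apart from the other 3.

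In the first null set the question was whether these genes differ between Cebpb null and control cells, and between null cells of low and high CD11b. In CD11b low null cells 12 of the 38 genes tested rose and none fell. Over all 8502 genes tested, 8.29% were called higher and 6.83% lower. The median log2 fold change of the 38 was 0.65, against 0 over all genes. In CD11b high null cells 15 of 38 rose and none fell (12.2% of all genes higher, 11.8% lower), with a median of 0.89 against 0.01.

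Oasl2 was at 2.68, 2.74, 5.36 and 5.18 CPM in the controls, 11.1, 31.2, 34.0 and 71.7 in CD11b low and 29.7, 40.0, 94.7 and 82.8 in CD11b high null libraries. All 8 null libraries lay above all controls (log2 fold change 3.04 ± 0.60, adjusted p = 0.00141 for CD11b low and 3.81 ± 0.57, adjusted p = 5.23e-05, for CD11b high). Ifi44, an interferon-induced cytoplasmic protein, was at 6.70, 4.11, 5.36 and 4.14 CPM in controls, 10.4, 43.4, 44.7 and 74.2 in CD11b low and 13.7, 54.4, 89.2 and 96.7 in CD11b high null cells. Its groups did not overlap either (log2 fold change 3.01 ± 0.70, adjusted p = 0.00747, and 3.61 ± 0.67, adjusted p = 0.000819). Ifi27l2a, a small membrane protein, was at 48.2, 42.4, 41.5 and 39.4 CPM in controls and 76.7, 470.1, 194 and 488 in CD11b low null cells, where the first null library was nearest to the controls (log2 fold change 2.82 ± 0.62, adjusted p = 0.00684).

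Usp18, the protease that removes Isg15 and restrains the interferon receptor, was at 2.68, 0, 2.68 and 0 CPM in controls, 2.07, 12.1, 7.36 and 27.7 in CD11b low and 9.90, 17.01, 23.3 and 35.7 in CD11b high null cells. The first CD11b low library lay within the control range (log2 fold change 2.79 ± 0.86, adjusted p = 0.0346; CD11b high 3.77 ± 0.78, adjusted p = 0.00113). The CD11b low call of Usp18 was lost in 5 of 8 fits with 1 library left out. Irf7 varied most: it was at 5.36, 19.2, 38.1 and 16.6 CPM in controls, 4.84, 222, 41.3 and 135 in CD11b low and 25.9, 55.3, 92.0 and 217 in CD11b high null cells. Its null libraries ranged from below all controls to more than any of them, and neither difference passed (2.15 ± 1.01, adjusted p = 0.191, and 2.22 ± 0.99, adjusted p = 0.135).

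Isg15 was at 13.4, 20.5, 34.1 and 18.6 CPM in controls, 4.84, 83.3, 9.06 and 65.4 in CD11b low and 9.90, 20.4, 34.3 and 54.5 in CD11b high null cells, with null libraries on both sides of the controls. The ISGF3 subunit Stat2 was at 68.3, 34.2, 64.3 and 68.3 CPM in controls, 40.1, 79.8, 75.9 and 61.6 in CD11b low and 48.8, 75.7, 96.1 and 102 in CD11b high cells. Irf9, its DNA-binding partner, was at 41.5, 45.18, 18.1 and 30.0 CPM in controls, 24.2, 46.8, 49.8 and 56.6 in CD11b low and 38.1, 37.4, 148 and 59.98 in CD11b high cells, and neither subunit passed in either gate (adjusted p = 0.0699 for Irf9 in CD11b high). The groups of both genes overlapped with the controls in both gates.

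Zbp1, a sensor of left-handed nucleic acid, was at 26.8, 20.5, 30.1 and 29.0 CPM in controls, 9.68, 38.2, 21.5 and 44.0 in CD11b low and 9.90, 31.5, 41.2 and 47.1 in CD11b high cells. Gbp2, a guanylate-binding protein that attacks vacuoles of pathogens, was at 22.8, 20.5, 16.1 and 14.5, 14.5, 15.6, 14.7 and 15.1 and 8.38, 12.8, 43.9 and 23.3 CPM in the same order. Igtp was at 25.4, 19.2, 12.1 and 13.5, 10.4, 8.67, 20.9 and 18.9 and 11.4, 19.6, 64.5 and 28.8 CPM in that order. All 3 overlapped between null and control, and none passed. Ifit3, Cxcl9 and Cxcl10 did not pass the count filter in this set.

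Between CD11b high and CD11b low null cells no gene of the list was called at all with edgeR, where 3.8% of all genes were; 2 of 38 had an unadjusted p under 0.05, DESeq2 called none, and the median difference was 0.26. Of the list of 36 interferon ligands, receptors and signalling genes, 27 were tested: 3 rose and 2 fell in CD11b low, and 4 rose and 3 fell in CD11b high. Of a list of 72 further interferon-induced genes 50 were tested, and 11 rose and 2 fell in CD11b low against 20 and 1 in CD11b high. The call count in CD11b low depended on single libraries: 6 or 7 genes were called without control replicate 2 or 4 or without null replicate 2 or 4, and 6 with both replicates 4 of the null gates left out. It was also 6 with only the CD11b low and control libraries in the fit. The summed level of the 10 alveolar macrophage markers was 8840 to 11300 CPM in controls, 2360 to 3480 in CD11b low and 719 to 1750 in CD11b high null cells, with none of the 10 at 0. That of the 7 interstitial or marrow-derived macrophage markers was 390 to 670, 9230 to 20200 and 8750 to 21400 CPM. The 6 monocyte markers summed to 113 to 205, 949 to 1230 and 565 to 1420 CPM, and 1 of the 2 tested was called higher in each gate. The 6 markers of plasmacytoid dendritic cells, which can release much type I interferon, summed to 21.4 to 43.8, 85.7 to 245 and 233 to 1170 CPM in the same order. Both of those tested, Cox6a2 and Tcf4, were called higher in both gates, with a median log2 fold change of 2.47 in CD11b low and 4.07 in CD11b high cells, whereas Siglech, which defines these cells, had 0 counts in all 12 libraries. The part of these shifts in the interferon-stimulated genes was not tested.

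The facility set asked how far the null phenotype depends on the animal house and on sex. Null females of facility 2 had 40 of 44 tested genes higher and 1 lower, when 24.9% of all 11040 genes were called higher and 22.7% lower. Null females of facility 1 had 11 higher and 3 lower (12.5% and 10.8% of all genes). The median log2 fold change was 3.04 at facility 2, 0.68 at facility 1 and 0.39 in males, against 0.02, 0.04 and 0.01 over all genes. In null males 5 rose and none fell (7.12% and 3.76%), a count of 8 with DESeq2 and of 11 (10 higher, 1 lower) with only the male libraries in the fit. In facility 1 heterozygotes edgeR called none (0.634% of all genes called), 6 of 44 had an unadjusted p under 0.05, DESeq2 called none, and edgeR without the count filter called 1.

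**Figure D2:**
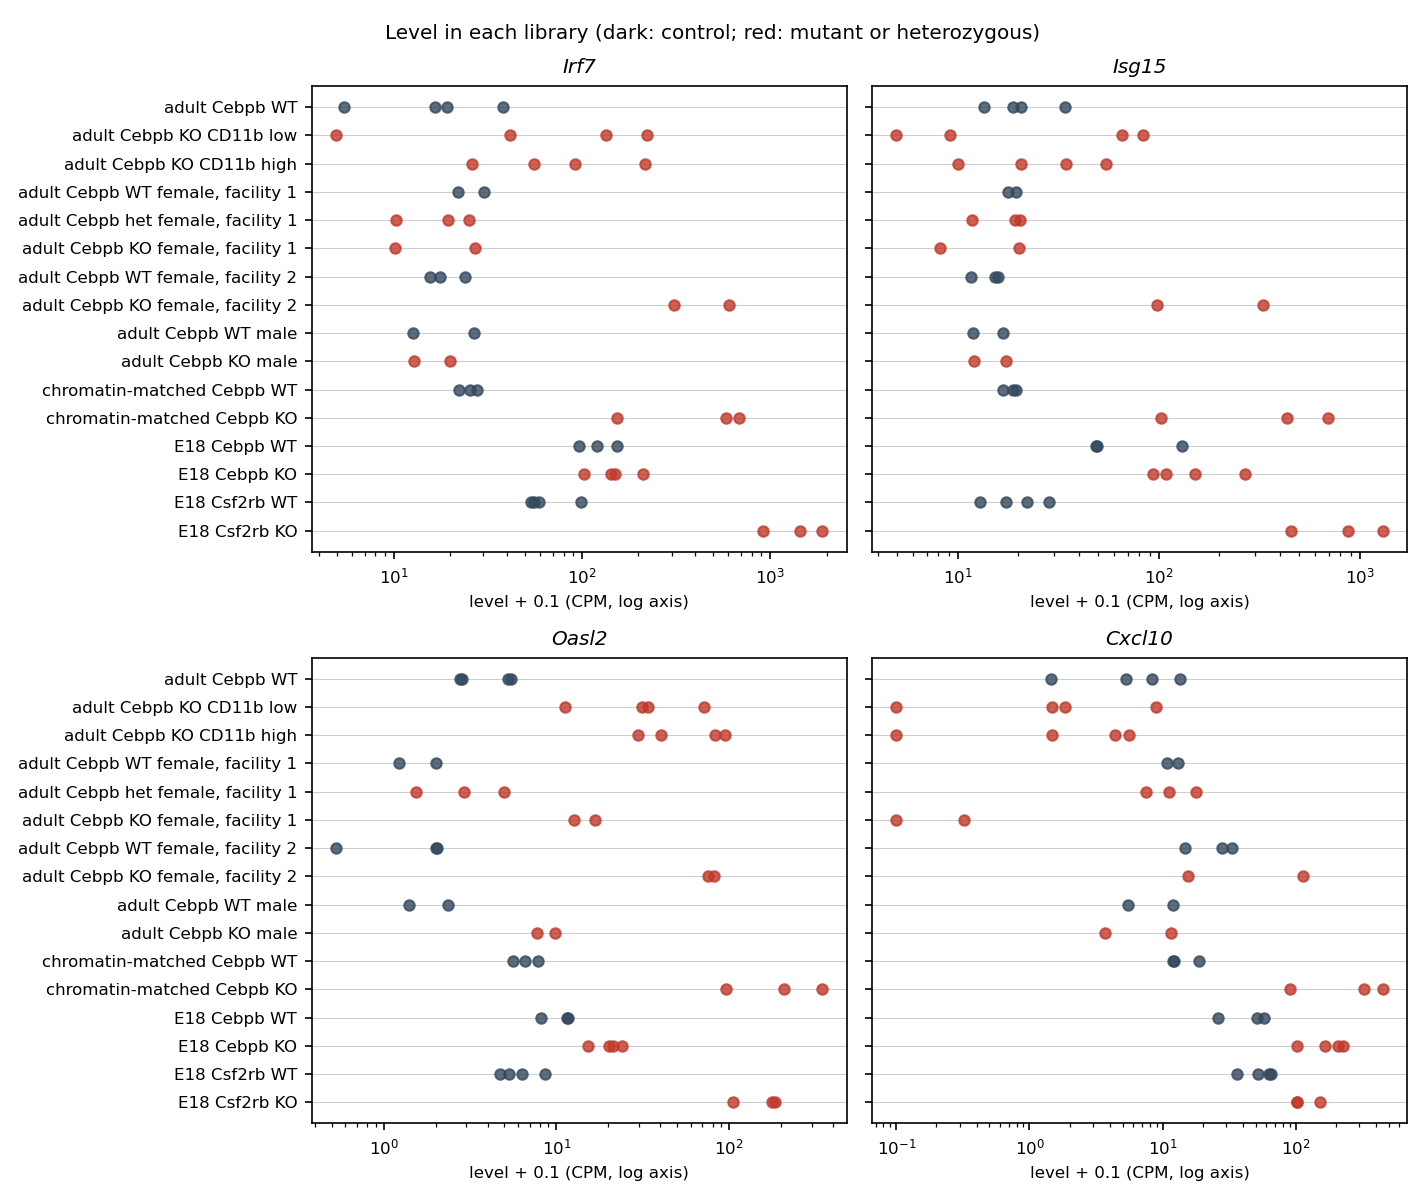
Level plus 0.1 CPM (log axis) of Irf7, Isg15, Oasl2 and Cxcl10 in each library of the adult null sets and the E18 macrophage sets, blue for controls and red for mutants or heterozygotes. Irf7 is at 309 and 605 CPM in facility 2 null females and between 10.1 and 30.2 CPM in every facility 1 library, whereas Oasl2 separates null from control in each set shown.

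Irf7 was at 15.5, 17.6 and 23.9 CPM in facility 2 controls and 309 and 605 in facility 2 null females (log2 fold change 4.60 ± 0.46, adjusted p = 3.91e-06). At facility 1 it was at 21.8 and 30.2 in controls, 10.2, 19.3 and 25.1 in heterozygotes and 10.1 and 26.9 in null females, and in males at 26.8 and 12.6 in controls and 19.7 and 12.7 in null cells. The facility 2 null libraries were above all others, and the rest overlapped (adjusted p = 0.533 at facility 1 and 0.861 in males).

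Isg15 was at 15.2, 15.7 and 11.6 CPM in facility 2 controls and 97.4 and 329.6 in null females (log2 fold change 3.92 ± 0.44, adjusted p = 7.47e-06). It was at 17.6 and 19.4, 11.6, 19.2 and 20.4 and 8.09 and 20.0 CPM in facility 1 controls, heterozygotes and null females, and at 16.6 and 11.8 and 11.9 and 17.3 in control and null males. Outside facility 2 its groups overlapped and no difference passed.

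Oasl2 was higher in the null cells of every group. It was at 0.431, 1.95 and 1.90 CPM in facility 2 controls and 81.6 and 75.7 in null females (log2 fold change 5.74 ± 0.42, adjusted p = 9.63e-09), and at 1.13 and 1.92 and 12.6 and 16.7 in facility 1 controls and null females (log2 fold change 3.22 ± 0.55, adjusted p = 0.000352). Heterozygotes were at 1.44, 2.80 and 4.87 CPM. Male controls were at 2.25 and 1.30 and null males at 7.60 and 9.67 CPM (log2 fold change 2.33 ± 0.54, adjusted p = 0.00819), a call that was lost without the second male library of either genotype.

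Usp18 was at 0.144, 0.803 and 0.158 CPM in facility 2 controls and 35.9 and 67.7 in null females (log2 fold change 6.96 ± 0.65, adjusted p = 2.08e-07). It was at 0.283 and 0.479, 1.12, 0.701 and 0.348 and 2.16 and 6.67 CPM in facility 1 controls, heterozygotes and null females, which rested on 3 counts in the controls and 42 in the null libraries (ratio 10.6, 95% counting interval 3.37 to 53.2; log2 fold change 3.40 ± 1.01, adjusted p = 0.0213). That call was lost in 3 of 4 fits with 1 library left out. In males it was at 0.845 and 0 CPM in controls and 1.20 and 3.49 in null cells and did not pass (adjusted p = 0.134).

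Among the transcription factor subunits, Stat2 was at 56.4, 51.2 and 45.3 CPM in facility 2 controls and 118 and 107 in null females (log2 fold change 1.14 ± 0.19, adjusted p = 9.61e-05). It was at 53.9 and 57.0, 58.0, 72.8 and 61.2 and 48.0 and 41.6 CPM in facility 1 controls, heterozygotes and null females, and at 88.8 and 54.6 and 56.0 and 59.8 in control and null males. Irf9 was at 52.9, 52.1 and 56.1 CPM in facility 2 controls and 294 and 129 in null females (log2 fold change 1.96 ± 0.25, adjusted p = 8.51e-06). It was at 65.2 and 62.0, 58.4, 61.6 and 68.2 and 83.2 and 125 CPM at facility 1 in the same order, and at 102 and 78.1 and 81.6 and 91.9 in control and null males. At facility 1 the null libraries of Stat2 lay below and those of Irf9 above their controls without passing (adjusted p = 0.337 and 0.0844).

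Ifit3 was at 2.01, 5.39 and 3.01 CPM in facility 2 controls and 14.9 and 41.1 in null females (log2 fold change 3.03 ± 0.54, adjusted p = 0.000196). It was at 1.70 and 2.63, 1.59, 4.90 and 4.87 and 1.26 and 4.45 CPM at facility 1 and at 1.97 and 0.555 and 3.73 and 4.60 in control and null males. Zbp1 was at 35.8, 34.9 and 29.1 CPM in facility 2 controls and 71.3 and 204 in null females (log2 fold change 2.07 ± 0.29, adjusted p = 1.68e-05). At facility 1 it was at 34.0 and 34.7, 34.0, 39.2 and 37.4 and 18.3 and 20.2 CPM, and in males at 39.7 and 28.7 and 26.3 and 21.1, so that its null libraries lay below their controls in both of those groups without passing (adjusted p = 0.093 and 0.4).

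The GTPase Gbp2 was at 19.0, 20.2 and 17.6 CPM in facility 2 controls and 54.7 and 100.3 in null females (log2 fold change 2.05 ± 0.32, adjusted p = 6.27e-05). It was at 16.2 and 7.66, 16.7, 14.4 and 24.7 and 11.9 and 18.5 CPM at facility 1 and 15.8 and 7.78 and 14.4 and 13.2 in control and null males, with overlap in both. Igtp was at 19.9, 22.7 and 20.3 CPM in facility 2 controls and 94.0 and 88.8 in null females (log2 fold change 2.12 ± 0.21, adjusted p = 2.52e-07). It was at 20.7 and 19.9, 14.3, 19.6 and 21.4 and 21.9 and 33.4 CPM at facility 1 and 16.6 and 13.1 and 19.7 and 19.5 in males, where no difference passed.

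The chemokines Cxcl9 and Cxcl10, which draw T cells through their receptor Cxcr3, went the other way at facility 1. Cxcl10 was at 13.0 and 10.8 CPM in facility 1 controls, 11.2, 7.42 and 17.6 in heterozygotes and 0 and 0.223 in null females. The null libraries held 1 count together and the controls 91, a ratio of 121 with a 95% counting interval of 21.1 to 4820 (log2 fold change -6.62 ± 1.72, adjusted p = 0.0158), and leaving out any 1 of the 4 libraries ended the call (adjusted p up to 0.104). At facility 2 it was at 27.6, 32.9 and 14.6 CPM in controls and 15.4 and 113 in null females (log2 fold change 1.41 ± 0.65, adjusted p = 0.0965, not passed), and in males at 11.8 and 5.37 and 3.60 and 11.4. Cxcl9 was at 11.1 and 7.90, 15.2, 14.3 and 21.6 and 1.62 and 2.67 CPM at facility 1 (log2 fold change -2.15 ± 0.58, adjusted p = 0.0127 for null), a call lost without replicate 1 of either genotype. It was at 12.7, 10.2 and 20.0 and 5.13 and 18.9 CPM at facility 2 and 20.9 and 13.0 and 8.00 and 12.2 in males, with no call in either.

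The largest rises at facility 2 were in genes nearly silent in the controls. Iigp1, an immunity-related GTPase, had 0 counts in the 3 controls and was at 22.2 and 23.3 CPM in null females, at least 140-fold higher than the 3 counts that 0 allows over the control group (adjusted p = 2.78e-06). Ifi44 was at 1.01, 1.03 and 1.43 CPM in controls and 120.5 and 226 in null females (log2 fold change 7.23 ± 0.52, adjusted p = 2.46e-08). At facility 1 Slfn5 was at 0.567 and 1.20 CPM in controls and 10.2 and 35.8 in null females (log2 fold change 4.62 ± 0.63, adjusted p = 4e-05). Ifi44 was at 1.13 and 1.20 and 12.2 and 31.4 CPM there (log2 fold change 4.18 ± 0.70, adjusted p = 0.000422), and Oasl1 at 3.69 and 2.15 and 22.6 and 52.3 CPM (log2 fold change 3.69 ± 0.51, adjusted p = 5.65e-05). These 3 genes did not overlap between the groups at facility 1.

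In males, Slfn5 was at 0.282 and 0.740 CPM in controls and 6.14 and 8.08 in null cells (log2 fold change 3.63 ± 0.72, adjusted p = 0.00262), and Ifi44 at 1.69 and 0.740 and 5.07 and 15.8 (log2 fold change 3.17 ± 0.72, adjusted p = 0.00837). Samhd1, which degrades deoxynucleotides, was the gene that fell at both facilities. It was at 435 and 438 CPM in facility 1 controls and 322 and 281 in null females (log2 fold change -0.53 ± 0.16, adjusted p = 0.0217), and at 425, 456 and 433 and 306 and 355 CPM at facility 2 (log2 fold change -0.40 ± 0.15, adjusted p = 0.0311). Both calls of Samhd1 were lost in 3 fits with 1 library left out.

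**Figure D3:**
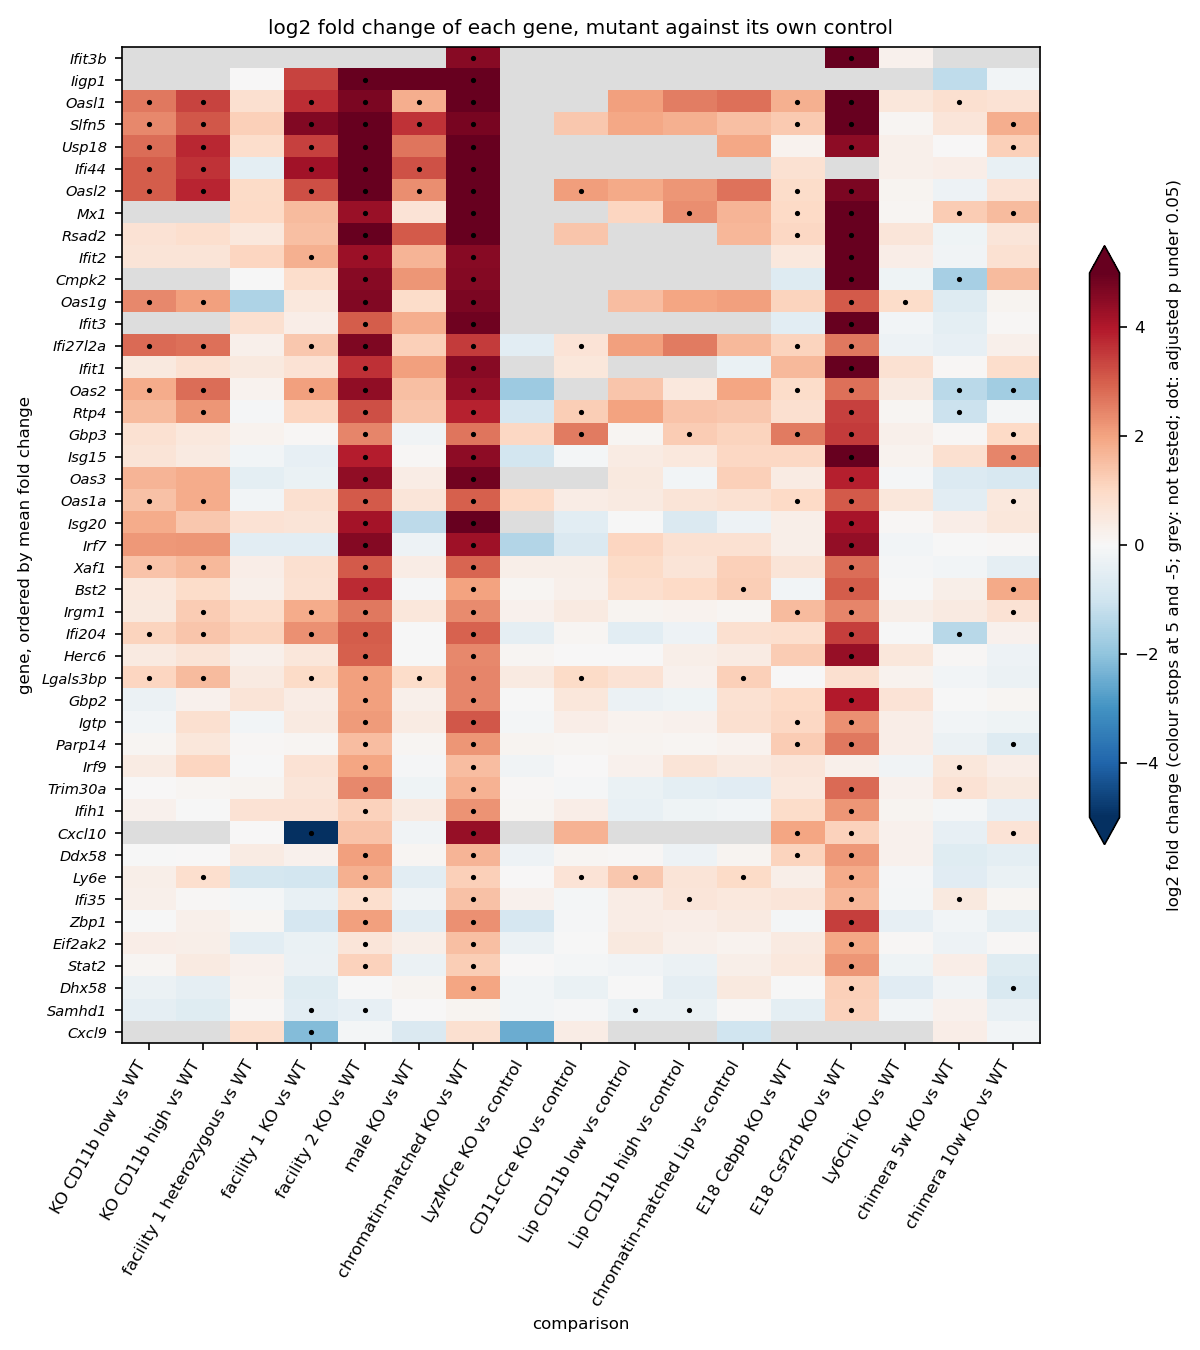
Log2 fold change (colour, stopping at 5 and -5) of each interferon-stimulated gene (rows, ordered by mean) in each comparison of mutant or heterozygote with its own control (columns), with a dot where the edgeR adjusted p was under 0.05 and grey where a gene was not tested. Dots fill the facility 2, chromatin-matched null and Csf2rb null columns, where the medians are 3.04, 3.10 and 3.24.

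The difference between the facilities was tested directly. The log2 fold change of deletion was higher at facility 2 than at facility 1 for 20 of 44 genes and lower for none. Over all genes these shares were 3.44% and 4.17%, and the median difference of the list was 2.40. Irf7 differed by 5.11 ± 0.71 (adjusted p = 0.00174), Isg15 by 4.34 ± 0.70 (adjusted p = 0.00337) and Oas3, an oligoadenylate synthetase, by 4.79 ± 0.72 (adjusted p = 0.00121). Zbp1, Igtp and Stat2 differed by 2.91 ± 0.45, 1.68 ± 0.32 and 1.45 ± 0.29 (adjusted p = 0.00169, 0.00571 and 0.00722). Cxcl10 differed by 8.03 ± 1.82 (adjusted p = 0.0219), but not without any 1 of the 4 facility 1 libraries. Oasl2, which rose at both, did not differ past the threshold (2.53 ± 0.79, adjusted p = 0.0592).

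Control females of the 2 facilities were close: no gene of the list was called with edgeR (0.199% of all genes were), 1 of 44 had an unadjusted p under 0.05, DESeq2 called none, and the median difference was 0.04. Null females of facility 2 exceeded those of facility 1 in 42 of 44 genes and were lower in none (8.29% and 9.82% of all genes), with a median of 2.40. Cxcl10 rested on 1 count in facility 1 null cells and 1209 at facility 2 (ratio 791, 95% counting interval 142 to 31300; adjusted p = 0.00183), and Iigp1 on 2 and 294 counts (ratio 96.2, interval 26.4 to 798; adjusted p = 0.000427). Irf7, Isg15 and Usp18 were higher at facility 2 by 4.65 ± 0.56, 3.96 ± 0.53 and 3.60 ± 0.60 (adjusted p = 0.000286, 0.000372 and 0.000832). The null libraries of the 2 facilities did not overlap in any of the 12 genes that are given above for all groups of the set. With 2 libraries on each side such separation also arises by chance, and its share over all genes was not counted. At facility 1 the null libraries lay above all controls in 22 and below all in 8 of 44 genes, counts with the same limit.

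The difference between null females was 3.38 ± 0.66 for Ifit3, 2.86 ± 0.35 for Zbp1 and 2.64 ± 0.56 for Cxcl9 (adjusted p = 0.00244, 0.000118 and 0.00416). It was 2.43 ± 0.40 for Oasl2, 2.38 ± 0.38 for Gbp2 and 1.73 ± 0.23 for Igtp (adjusted p = 0.000708, 0.000619 and 0.000208). For the ISGF3 subunits it was 1.32 ± 0.22 for Stat2 and 1.01 ± 0.28 for Irf9 (adjusted p = 0.00063 and 0.0206). With 1 library left out, the calls of Irf9 and Cxcl9 were lost in 2 and that of Ifit3 in 1 of 4 fits. Facility 2 null cells came from 2 libraries of very unequal depth, 2345778 and 12687928 counts. Their share of mitochondrial counts was 0.886% to 1.22%, against 0.039% to 0.058% in their controls and 0.224% to 0.484% in facility 1 null cells, and its part in the result was not tested.

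The male effect was smaller than the mean female effect for 14 of 44 genes and larger for none (4.43% and 6.16% of all genes), with a median of -1.37. Isg20, an RNA exonuclease, differed by -3.72 ± 0.95 (adjusted p = 0.0225), Ifi204, a DNA sensor, by -2.68 ± 0.38 (adjusted p = 0.000656) and Oasl1 by -2.37 ± 0.61 (adjusted p = 0.023). Irf7 and Irf9 differed by -2.28 ± 0.65 and -1.38 ± 0.34 (adjusted p = 0.0417 and 0.0184), and the Irf7 call was lost in 9 of 13 fits with 1 library left out. Sex and facility cannot be told apart here, because the males' facility is not given. The count fell to 3 without male control replicate 1 or male null replicate 1, and to 8 or 9 without the second library of the facility 1 controls, of the facility 1 null females, of the facility 2 controls or of the null males.

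Alveolar macrophage markers summed to 7370 to 10100 CPM in facility 2 controls and 493 to 970 in null females, to 7030 to 10400 and 1040 to 1940 at facility 1, and to 7500 to 7670 and 2910 to 3220 in males. Markers of interstitial or marrow-derived macrophages summed to 11700 to 18500 CPM in facility 2, 7630 to 13200 in facility 1 and 8120 to 12100 in male null cells. Controls had 97 to 679 CPM of the latter. Monocyte markers summed to 200 to 398 CPM in facility 2 controls and 1740 to 1890 in null females, with 3 of 4 tested called higher, and to 2790 to 3000 and 1380 to 1670 CPM in facility 1 and male null cells, with 1 of 4 called in each. Plasmacytoid dendritic cell markers summed to 9.2 to 15.1 CPM in facility 2 controls and 503 to 860 in null females, and to 145 to 297 and 79.9 to 86.4 CPM in facility 1 and male null cells. Cox6a2 and Tcf4 were again the 2 of 3 called higher in each, and Cox6a2 was also higher in null females of facility 2 than of facility 1 (2.06 ± 0.50, adjusted p = 0.0147). Siglech had 0 counts in every female library of both facilities. The 8 T, NK and B cell markers summed to 0.158 to 0.575 CPM in facility 2 controls and 5.19 to 5.55 in null females, and the 1 tested, Klrb1c, was called higher there (4.51 ± 1.01, adjusted p = 0.00142) and higher than in facility 1 null females (4.00 ± 1.20, adjusted p = 0.0283). The part of these lists in the interferon-stimulated genes was not tested. Among the 29 ligand, receptor and signalling genes tested, 10 rose and 6 fell at facility 2. The feedback inhibitors Socs3 and Socs1 rose by 3.33 ± 0.33 and 3.06 ± 0.39 (adjusted p = 5.7e-07 and 6.82e-06), while Mavs, the adaptor of RNA sensing, fell (-1.60 ± 0.23, adjusted p = 2.74e-05). At facility 1, 7 rose and 3 fell. Of 61 further induced genes 46 rose and 1 fell at facility 2, 17 and 3 at facility 1, and 9 and 2 in males.

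At facility 1 the count fell from 14 to between 6 and 8 without either control library or without null replicate 2. In males the count of 5 fell to 1 without control replicate 2 and to 2 without null replicate 2.

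Set beside the first null set, the CD11b low effect did not differ from the facility 1 effect in any of 45 genes with edgeR (0.337% of all genes did; 5 of 45 had an unadjusted p under 0.05, and DESeq2 called none). It was smaller than the facility 2 effect in 19 and larger in none (4.88% and 6.49%), with a median of -2.13. Without the count filter these counts were 6 (4 larger, 2 smaller) and 37, all smaller. Cmpk2, a nucleotide kinase, differed by -4.62 ± 1.32 (adjusted p = 0.0214), Rsad2 (viperin) by -4.34 ± 1.26 (adjusted p = 0.0307) and Ifi44 by -4.15 ± 1.21 (adjusted p = 0.0286). Isg15, Zbp1, Gbp2 and Igtp differed by -3.29 ± 1.02, -2.08 ± 0.57, -2.29 ± 0.54 and -2.21 ± 0.52 (adjusted p = 0.0428, 0.0172, 0.00522 and 0.00539). The calls of Isg15, Rsad2 and Ifi44 were lost in 9, 7 and 5 of 13 fits with 1 library left out. Without the second facility 2 null library 9 differed. The 2 sets are different deposited experiments, and their batch cannot be told apart from the set.

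The chromatin-matched null set also showed a broad rise. Of 45 genes tested 43 rose and none fell (14.6% and 12.6% of all 10262 genes), with a median of 3.10 against 0.02. The exceptions were Cxcl9, at 6.92, 8.84 and 12.7 CPM in controls and 10.2, 7.26 and 32.3 in null cells, and Samhd1, at 366, 328 and 293 and 402, 275 and 397. In this set the second null library was the lowest and the third the highest of the null libraries for every gene described next.

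Oasl1 was at 4.61, 5.52 and 6.05 CPM in controls and 452, 112 and 753 in null cells (log2 fold change 6.33 ± 0.78, adjusted p = 0.0013). Iigp1 was at 1.38, 0.736 and 0.550 and 39.5, 10.7 and 108 CPM (log2 fold change 5.90 ± 1.06, adjusted p = 0.00737), and Ifi44 at 10.4, 10.7 and 8.26 and 411, 160.0 and 931 CPM (log2 fold change 5.68 ± 0.70, adjusted p = 0.00119). These were the largest rises, and in all 3 every null library was above every control. Irf7 was at 27.7, 22.1 and 25.5 CPM in controls and 582, 154 and 684 in null cells (log2 fold change 4.24 ± 0.56, adjusted p = 0.00146). Isg15 was at 18.7, 16.8 and 19.4 and 436, 102 and 694 CPM (log2 fold change 4.49 ± 0.70, adjusted p = 0.00364), and Usp18 at 1.85, 4.42 and 4.40 and 103, 46.2 and 233 CPM (log2 fold change 5.13 ± 0.71, adjusted p = 0.00194). The groups of Irf7 and Isg15, which overlapped in the first null set, did not overlap here.

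Oasl2 was at 6.46, 5.52 and 7.71 CPM in controls and 207, 96.1 and 346 in null cells (log2 fold change 5.04 ± 0.50, adjusted p = 0.000248). Ifit3 was at 1.61, 3.87 and 3.30 and 86.5, 29.6 and 144 CPM (log2 fold change 4.86 ± 0.67, adjusted p = 0.00177). The chemokine Cxcl10 was at 12.0, 12.0 and 18.7 and 327, 90.0 and 449.5 CPM (log2 fold change 4.34 ± 0.62, adjusted p = 0.00219), which had fallen at facility 1. Gbp2 was at 22.6, 23.2 and 37.4 and 159, 64.8 and 230.1 CPM (log2 fold change 2.44 ± 0.46, adjusted p = 0.00584). Igtp was at 11.1, 13.1 and 13.2 and 104, 46.5 and 170.3 CPM (log2 fold change 3.10 ± 0.45, adjusted p = 0.00157), and Irf9 at 21.7, 25.9 and 29.9 and 71.2, 46.8 and 110.2 CPM (log2 fold change 1.56 ± 0.29, adjusted p = 0.00385).

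For Stat2 and Zbp1 the calls depended on single libraries. Stat2 was at 64.1, 64.6 and 76.9 CPM in controls and 132, 86.8 and 266 in null cells (log2 fold change 1.24 ± 0.37, adjusted p = 0.0396), and Zbp1 at 26.3, 22.3 and 24.8 and 137, 37.5 and 185 CPM (log2 fold change 2.30 ± 0.53, adjusted p = 0.018). Each of these calls was lost in 4 of 6 fits with 1 library left out. Over the whole list 33 to 43 genes were called in those fits. Among 29 signalling genes 10 rose and 2 fell, and of 61 further induced genes 46 rose and 1 fell. Alveolar macrophage markers summed to 9940 to 11800 CPM in controls and 732 to 1190 in null cells, and interstitial or marrow-derived macrophage markers to 144 to 372 and 15800 to 27600 CPM. All 5 neutrophil markers tested and all 5 erythroid markers also rose in the null cells. Monocyte markers summed to 157 to 408 and 934 to 1260 CPM, with 3 of 5 tested called higher. Plasmacytoid dendritic cell markers summed to 16.3 to 17.3 and 175 to 249 CPM, and both of those tested, Cox6a2 and Tcf4, were called higher (median log2 fold change 4.95). Siglech had 10 counts in the 3 null libraries and 4 in the controls. The part of these lists in the result was not tested.

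Replicates of one genotype differed more for these genes than for others in several sets. In the chromatin-matched null group the median within-group SD of the 45 genes was 1.108 on the log2 scale, against 0.306 over all genes tested. It was 0.759 against 0.34 in CD11b low and 0.747 against 0.369 in CD11b high null cells, and 0.605 against 0.334 at facility 2. In Csf2rb null cells it was 0.511 against 0.69, and in wild-type Ly6Chi monocytes 0.224 against 0.26. The deviations ran together over genes: the mean correlation between pairs of these genes, over deviations of the 6 chromatin-matched libraries from their group means, was 0.84, against 0 for all genes. It was 0.71 over the 11 Lip libraries, 0.49 over the 12 libraries of the first null set and 0.29 over the 16 of the facility set. It was 0.02 over 7 Ly6Chi libraries and 0.01 over 4 LyzM Cre libraries. These are descriptions over few libraries that share their depth and preparation.

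Conditional deletion gave few calls. With LyzM Cre edgeR called none of 28 genes (4.68% of all genes were called), 4 had an unadjusted p under 0.05, DESeq2 called none, and the median was -0.05 against 0.03. With CD11c Cre 6 of 33 rose and none fell (10.3% and 6.48%), with a median of 0.29 against 0. Their strain, alleles and control genotypes differ from those of the null sets.

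In the LyzM Cre set Irf7 was at 28.5 and 32.5 CPM in controls and 13.6 and 9.88 in mutants, without overlap and just short of the threshold (log2 fold change -1.46 ± 0.35, adjusted p = 0.0514). Zbp1 was at 31.4 and 32.5 and 12.4 and 20.6 CPM (adjusted p = 0.279), and Cxcl9 at 8.72 and 9.81 and 4.96 and 0.824 CPM (adjusted p = 0.137). In these 3 genes both mutant libraries lay below both controls. Stat2 was at 72.7 and 80.0 and 59.5 and 90.8 CPM, and Irf9 at 27.3 and 26.4 and 17.4 and 28.0. Isg15 was at 15.7 and 8.30 and 8.68 and 5.56 CPM, Gbp2 at 29.1 and 20.4 and 24.8 and 24.3, and Igtp at 8.14 and 10.6 and 3.72 and 10.9, each with overlap. Usp18, Ifit3, Oasl2 and Cxcl10 did not pass the count filter. The count of 0 rose to 6 without mutant replicate 1 (2 higher, 4 lower) and to 9 without mutant replicate 2 (4 higher, 5 lower). Those were fits in which the lone mutant library was assumed to vary like the controls. Without the count filter 2 genes were called lower, and 1 with the replicate number as a block.

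In the CD11c Cre set Gbp3, a guanylate-binding protein, was at 2.53, 4.45 and 6.93 CPM in controls and 29.6, 43.2, 25.0 and 13.5 in mutants (log2 fold change 2.58 ± 0.37, adjusted p = 0.000417). Oasl2 was at 0.211, 1.74 and 1.98 and 4.78, 11.2, 4.09 and 2.79 CPM (log2 fold change 2.10 ± 0.56, adjusted p = 0.0222), and Rtp4, a receptor-transporting protein, at 3.17, 2.52 and 2.97 and 4.78, 11.2, 4.60 and 6.52 CPM (log2 fold change 1.23 ± 0.36, adjusted p = 0.0325). In all 3 every mutant library exceeded every control, but the Oasl2 call was lost in 3 and the Rtp4 call in 4 of 7 fits with 1 library left out. The other 3 that rose were Ifi27l2a, Lgals3bp and Ly6e. Irf7 was at 6.96, 8.12 and 10.4 CPM in controls and 2.87, 8.19, 2.56 and 7.91 in mutants. Isg15 was at 10.3, 6.00 and 8.58 and 10.3, 8.44, 6.90 and 4.66 CPM, and Stat2 at 76.2, 78.5 and 73.7 and 77.9, 71.2, 67.7 and 67.5. The groups of these 3 overlapped.

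Irf9 was at 31.6, 32.3 and 26.1 CPM in CD11c Cre controls and 28.2, 35.2, 27.6 and 31.7 in mutants, and Zbp1 at 28.5, 22.2 and 27.5 and 21.5, 25.1, 25.6 and 29.3. Cxcl9 was at 4.43, 2.13 and 1.65 and 0.478, 6.20, 3.32 and 4.19 CPM. Cxcl10 was at 1.27, 1.55 and 2.14 and 14.1, 2.48, 3.58 and 0.4655 CPM, with 1 mutant library far above the others (adjusted p = 0.134). Gbp2 was at 20.7, 15.1 and 16.8 and 26.1, 35.2, 22.0 and 18.2 CPM (adjusted p = 0.0997), and Igtp at 13.1, 17.8 and 10.4 and 15.8, 19.9, 14.1 and 20.0, both with overlap. Without control replicate 2 or mutant replicate 2 of the CD11c Cre set, 3 genes were called. Alveolar macrophage markers summed to 41500 to 44100 CPM in CD11c Cre controls and 13000 to 19400 in mutants, and to 24000 to 25800 and 4800 to 8830 CPM in the LyzM Cre set. Interstitial or marrow-derived macrophage markers summed to 10200 to 16400 CPM in CD11c Cre and 14000 to 14800 in LyzM Cre mutants, within the 7630 to 27600 CPM of the adult null cells of the other sets. With CD11c Cre 3 of 3 plasmacytoid dendritic cell markers tested (median log2 fold change 3.3), 2 of 2 monocyte and 4 of 4 neutrophil markers rose. With LyzM Cre 1 of 1 (1.9), 0 of 2 and 1 of 3 rose in the same order. The part of these lists in the result was not tested. Of the signalling list 8 rose and 3 fell with CD11c Cre and none was called with LyzM Cre, and of the further induced genes 14 and 2, and 1 and 0.

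In Lip cells, which keep the LIP isoform, few genes were called without a block for the replicate number. In CD11b low Lip cells 1 of 34 rose and 1 fell (14% and 11.8% of all genes), with a median of 0.40 against 0. In CD11b high Lip cells 3 rose and 1 fell (20.8% and 18.5%), with a median of 0.42 against 0. With the replicate block 2 rose and 7 fell in CD11b low, and 7 rose and 9 fell in CD11b high Lip cells. Same-numbered libraries of the 2 Lip gates deviated together (correlations of 0.105 to 0.248 over 4 pairs), but Lip and control libraries of the same number did not. Without the count filter the counts were 5 and 7, and the CD11b high count was also 7 with DESeq2 or with only its own and the control libraries in the fit. Ly6e, a membrane protein that limits viral entry, was at 708, 664 and 589 CPM in controls and 1360, 1480, 1470 and 2265 in CD11b low Lip cells (log2 fold change 1.34 ± 0.26, adjusted p = 0.00497). Samhd1 was at 376, 323 and 382 CPM in controls, 294, 256, 249.5 and 339 in CD11b low and 271, 286, 256 and 312 in CD11b high Lip cells (log2 fold change -0.33 ± 0.11, adjusted p = 0.0188, and -0.35 ± 0.11, adjusted p = 0.00859). Ly6e did not overlap with the controls. Samhd1 overlapped in CD11b low cells, where its call was lost in 4 of 7 fits with 1 library left out.

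Mx1, a dynamin-like antiviral GTPase, was at 2.07, 1.15 and 1.66 CPM in controls and 8.56, 5.77, 6.93 and 11.3 in CD11b high Lip cells (log2 fold change 2.34 ± 0.68, adjusted p = 0.00595). Gbp3 was at 5.17, 6.33 and 11.6 and 18.8, 18.3, 15.4 and 25.7 CPM (log2 fold change 1.26 ± 0.33, adjusted p = 0.00184). Ifi35 was at 96.2, 70.8 and 75.6 and 89.0, 136, 115 and 149 CPM (log2 fold change 0.62 ± 0.18, adjusted p = 0.0076). Mx1 and Gbp3 did not overlap between the groups, while Ifi35 did.

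The fourth Lip library of each gate stood apart for this gene list. Its summed level was 5870 CPM in CD11b low cells, against 2915 to 3022 in the other 3, and 4805 CPM in CD11b high cells, against 2360 to 2684. Irf7 was at 35.2, 16.1 and 22.1 CPM in controls, 7.40, 6.03, 5.44 and 147 in CD11b low and 1.71, 15.4, 10.8 and 126 in CD11b high Lip cells. Oasl2 was at 7.24, 6.33 and 3.31, 4.11, 5.27, 3.62 and 54.2 and 10.3, 17.3, 10.0 and 61.1 CPM in the same order. Stat2 was at 121, 86.9 and 101, 65.8, 71.6, 70.7 and 141 and 78.8, 56.7, 65.5 and 126 CPM. Replicate 4 was the highest of its gate in each of these, and apart from it the Irf7 levels of both gates lay below all 3 controls. Isg15 was at 5.17, 10.3 and 9.93, 3.29, 7.53, 6.04 and 25.4 and 6.85, 9.61, 5.39 and 28.9 CPM. Irf9 was at 23.8, 23.0 and 28.7, 27.9, 12.1, 20.5 and 50.8 and 34.2, 32.7, 33.1 and 57.1 CPM, and Zbp1 at 20.7, 13.2 and 31.4, 26.3, 24.9, 21.7 and 39.4 and 19.7, 20.2, 13.9 and 56.3. In CD11b high cells Oasl2 and Irf9 lay above all controls without passing (adjusted p = 0.255 and 0.304).

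Gbp2 was at 18.6, 21.3 and 28.1, 16.4, 19.6, 15.7 and 22.4 and 18.8, 21.1, 13.1 and 26.5 CPM in controls, CD11b low and CD11b high Lip cells, and Igtp at 15.5, 12.1 and 13.2, 18.1, 7.53, 15.1 and 18.2 and 12.8, 11.5, 12.3 and 24.1 CPM. Neither was called in either gate. With both replicates 4 left out, 3 genes rose and 5 fell in CD11b low, and 6 rose and 6 fell in CD11b high Lip cells. With replicate 4 of CD11b low alone left out, 1 rose and 3 fell there, and without control replicate 3 the CD11b low count was 1. Alveolar macrophage markers summed to 26100 to 28200 CPM in controls, 11800 to 15900 in CD11b low and 4420 to 5980 in CD11b high Lip cells, and interstitial or marrow-derived macrophage markers to 190 to 277, 11300 to 18100 and 21700 to 33100 CPM. The 1 plasmacytoid dendritic cell marker tested rose in CD11b low (1.2) and CD11b high (1.64) Lip cells. Of 2 monocyte markers tested 2 fell in CD11b low and 1 rose in CD11b high cells. The part of these lists in the result was not tested. Of 28 signalling genes 2 rose and 6 fell in CD11b low and 8 rose and 8 fell in CD11b high Lip cells, and of 52 further induced genes 12 and 4, and 15 and 5.

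**Figure D4:**
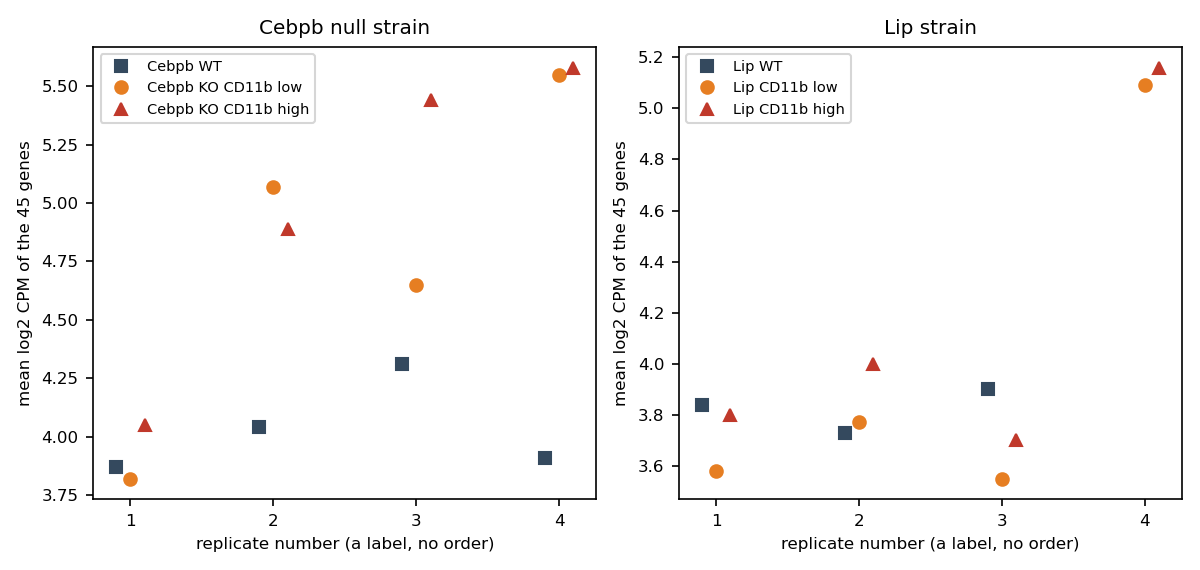
Mean log2 CPM of the 45 genes in each library of the first null set (left) and the Lip set (right), set out by replicate number, which is a label without order; squares are controls, circles CD11b low and triangles CD11b high cells. Replicate 4 of both Lip gates stands above the other 3, whereas null libraries of the first set spread over the whole scale.

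In the chromatin-matched Lip set 3 of 38 genes rose and none fell (3.1% and 1.84%), with a median of 0.78 against 0.01. Bst2 was at 126, 182, 129 and 257 CPM in controls and 445, 192, 653 and 349 in Lip cells (log2 fold change 1.24 ± 0.33, adjusted p = 0.0338). Lgals3bp, a secreted galectin-binding glycoprotein, was at 243, 197, 349 and 354 and 505, 323, 938 and 836 CPM (log2 fold change 1.18 ± 0.31, adjusted p = 0.0317). Ly6e was at 928, 1051, 1098 and 1643 and 2410, 1509, 3101 and 2235 CPM (log2 fold change 0.97 ± 0.26, adjusted p = 0.0386). All 3 overlapped between the groups, and each call was lost in 5 of 8 fits with 1 library left out.

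Irf7 was at 11.7, 27.9, 12.3 and 111 CPM in controls and 47.0, 6.19, 106 and 118 in Lip cells, with the fourth control among the high libraries. Oasl2 was at 1.56, 0, 3.72 and 5.25 and 11.7, 1.03, 35.2 and 30.8 CPM (adjusted p = 0.0931). Usp18 was at 0, 1.30, 0.845 and 4.37 and 4.92, 0, 17.3 and 4.27 CPM. The second Lip library was low in these genes and the other 3 were higher. Isg15 was at 3.12, 10.4, 9.13 and 20.5 and 20.1, 7.91, 41.7 and 20.5 CPM, and Stat2 at 62.4, 76.6, 69.0 and 61.6 and 61.8, 58.8, 52.5 and 159. Irf9 was at 32.8, 25.3, 30.1 and 46.8 and 48.5, 22.4, 59.3 and 53.6 CPM, and Zbp1 at 19.5, 25.3, 31.4 and 53.8 and 38.8, 24.4, 62.7 and 54.3. These 4 overlapped between the groups. Cxcl9 was at 3.90, 4.54, 3.38 and 5.25 and 2.92, 1.38, 1.35 and 2.35 CPM, below all controls without passing. Gbp2 was at 8.58, 13.6, 22.8 and 16.6 and 24.8, 22.0, 40.7 and 22.0 CPM, and Igtp at 2.34, 21.4, 15.9 and 12.7 and 17.7, 14.8, 40.3 and 22.6, with overlap. Without the second Lip library 9 genes rose; none was called without control replicate 1, control replicate 2 or Lip replicate 3, and 1 without control replicate 3 or Lip replicate 1.

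At E18 the Csf2rb null premature macrophages had the widest rise of the list. Of 42 genes tested 40 rose and none fell (11% and 11.4% of all 9422 genes), with a median of 3.24 against -0.08. The Csf2rb null libraries held counts for 9407, 9418 and 9387 genes, at total counts of 2360874, 1642946 and 2907179. Their controls held counts for 11654, 12404, 11639 and 12557 genes, at 2549216, 7949564, 2747424 and 7524758. The median within-group SD over all genes tested was 0.69 in null and 0.327 in control libraries. The part of the fewer detected genes in the rise was not tested. In Cebpb null premature macrophages 14 of 42 rose and none fell (12% and 9.55%), with a median of 0.83 against -0.02. The Csf2rb effect was larger for 29 of 43 genes and smaller for none (4.18% and 7.18%), with a median difference of 2.24. The 2 mutants are separate experiments with their own controls, and Csf2rb null embryos were C57BL/6 whereas the Cebpb null strain has a mixed background, so strain and batch cannot be told apart from the mutation in that difference.

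In Csf2rb null cells Rsad2 was at 411, 114 and 484 CPM, against 3.65, 2.41, 0.982 and 2.17 in controls (log2 fold change 7.19 ± 0.58, adjusted p = 3.9e-05). Ifit2, an RNA-binding protein, was at 81.6, 28.5 and 94.4 CPM against 0.365, 0.402, 0.654 and 0.638 (log2 fold change 6.96 ± 0.60, adjusted p = 5.68e-05), and Slfn5 at 433, 304 and 703 against 4.01, 13.7, 6.22 and 5.62 (log2 fold change 5.97 ± 0.47, adjusted p = 3.4e-05). These were the largest rises, with no overlap. Irf7 was at 1451, 920.2 and 1902 CPM against 55.8, 99.1, 53.3 and 59.0 (log2 fold change 4.41 ± 0.32, adjusted p = 2.33e-05). Isg15 was at 877, 457 and 1299 CPM against 21.9, 28.3, 12.8 and 17.2 (log2 fold change 5.44 ± 0.41, adjusted p = 2.62e-05), and Usp18 at 26.9, 31.1 and 52.8 against 1.46, 2.68, 1.31 and 1.02 (log2 fold change 4.47 ± 0.60, adjusted p = 0.000767). In Cebpb null cells Irf7 was at 102, 143, 211 and 149 CPM against 153, 96.9 and 121, with overlap (log2 fold change 0.29 ± 0.25, adjusted p = 0.461).

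Isg15 in Cebpb null cells was at 93.1, 150.4, 269 and 109 CPM against 129.5, 48.4 and 48.9 in controls, with overlap (adjusted p = 0.139), and Usp18 at 7.04, 9.16, 3.40 and 5.80 against 5.70, 3.89 and 7.16. Ifit3 was at 2.99, 12.0, 7.56 and 1.74 CPM against 12.4, 4.18 and 8.11 in the Cebpb experiment, and at 49.8, 20.3 and 98.1 against 0.365, 2.01, 0.654 and 0.511 with Csf2rb deleted (log2 fold change 5.83 ± 0.77, adjusted p = 0.00069). The difference between the 2 effects was 6.38 ± 0.86 for Ifit2, 6.28 ± 1.03 for Ifit3 and 6.12 ± 0.64 for Rsad2 (adjusted p = 0.000177, 0.000878 and 1.88e-05). These 3 had the largest differences of the list. Irf7, Isg15 and Usp18 differed by 4.08 ± 0.41, 4.37 ± 0.61 and 4.23 ± 0.74 (adjusted p = 1.35e-05, 0.00024 and 0.00147). Oasl2 and Zbp1 differed by 3.70 ± 0.44 and 3.51 ± 0.45 (adjusted p = 5.05e-05 and 0.000132). Stat2 and Gbp2 differed by 1.61 ± 0.45 and 2.94 ± 0.89 (adjusted p = 0.0297 and 0.0409), calls that were each lost in 8 of 14 fits with 1 library left out.

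Oasl2 rose in both E18 mutants. It was at 15.1, 21.1, 23.8 and 19.9 CPM in Cebpb null cells against 11.6, 8.07 and 11.4 (log2 fold change 0.93 ± 0.31, adjusted p = 0.0438), a call lost in 6 of 7 fits with 1 library left out, and at 185, 105 and 177 in Csf2rb null cells against 6.20, 5.22, 8.51 and 4.59 (log2 fold change 4.69 ± 0.35, adjusted p = 2.53e-05). Igtp was at 24.6, 35.9, 15.9 and 22.4 CPM against 11.2, 13.4 and 11.9 in the Cebpb experiment (log2 fold change 1.02 ± 0.32, adjusted p = 0.0336), lost in 5 of 7 such fits, and at 98.7, 74.2 and 85.4 against 14.6, 25.0, 12.8 and 16.98 in the Csf2rb experiment (log2 fold change 2.30 ± 0.33, adjusted p = 0.00111). In both genes and both experiments every mutant library exceeded every control.

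The Cebpb experiment differed in which genes led. Gbp3 was at 27.3, 41.9, 46.9 and 51.5 CPM in Cebpb null cells against 3.797, 9.27 and 8.11 (log2 fold change 2.58 ± 0.36, adjusted p = 0.000129), Cxcl10 at 227, 209, 167 and 101 against 57.6, 51.4 and 25.8 (log2 fold change 1.97 ± 0.32, adjusted p = 0.000526) and Oasl1 at 25.9, 43.3, 51.8 and 43.3 against 11.2, 8.67 and 16.2 (log2 fold change 1.76 ± 0.32, adjusted p = 0.00111). All 4 null libraries were above all 3 controls in each. In the Csf2rb experiment Cxcl10 was at 102, 152 and 103 CPM against 64.9, 62.4, 52.0 and 35.9 (log2 fold change 1.14 ± 0.29, adjusted p = 0.0199), a call lost without control replicate 3 or 4. Across 41 genes tested in both, the log2 fold changes of the 2 E18 mutants had a Pearson r of 0.07 and a Spearman rho of 0.11, a description over genes that are not independent.

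Stat2 was at 264, 159.8 and 264 CPM in Csf2rb null cells against 41.6, 90.7, 33.7 and 34.5 (log2 fold change 2.19 ± 0.39, adjusted p = 0.00347), and at 51.8, 53.9, 62.0 and 45.3 in Cebpb null cells against 48.7, 29.3 and 31.7. Irf9 was one of the 2 genes that did not rise with Csf2rb deleted: it was at 165, 46.9 and 257 CPM against 126, 152, 120.1 and 124 (log2 fold change 0.26 ± 0.44, adjusted p = 0.722), the mutants lying on both sides of the controls. In Cebpb null cells it was at 109, 139, 79.7 and 96.5 CPM against 58.9, 63.7 and 87.6 (adjusted p = 0.0833). Zbp1 was at 359, 209 and 495 CPM against 25.5, 38.4, 30.4 and 33.4 (log2 fold change 3.46 ± 0.31, adjusted p = 7.61e-05) with Csf2rb deleted, and at 26.6, 41.9, 44.97 and 26.9 against 57.2, 26.0 and 28.4 with Cebpb deleted. Gbp2 was at 26.5, 31.1 and 37.1 CPM against 1.46, 0.803, 1.64 and 3.83 (log2 fold change 3.98 ± 0.68, adjusted p = 0.00265) and at 12.5, 15.2, 1.89 and 8.12 against 4.85, 4.78 and 4.77 in the same order. Stat2, Zbp1 and Gbp2 separated in the Csf2rb experiment and overlapped in the Cebpb experiment. Cxcl9 did not pass the count filter in either.

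Of the signalling list 10 of 28 rose and 1 fell with Csf2rb deleted, among them Socs3 (2.48 ± 0.20, adjusted p = 3.4e-05), Ifnar1 (2.14 ± 0.28, adjusted p = 0.000613) and Irf1 (1.65 ± 0.25, adjusted p = 0.00135), and Mavs fell (-2.36 ± 0.58, adjusted p = 0.0172). In Cebpb null E18 cells 7 of 28 rose and 2 fell. Of the further induced genes 47 of 64 rose and 3 fell with Csf2rb deleted, against 15 of 62 and 3 with Cebpb deleted. The Cebpb count fell from 14 to 6 without control replicate 2 and to 9 without control replicate 3 or null replicate 4, and to 8 when all 4 E18 groups were fitted together.

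Other cell types' markers moved in both. Alveolar macrophage markers summed to 1210 to 1990 CPM in Csf2rb controls and 138 to 305 in null cells, and to 2020 to 2090 and 173 to 237 CPM in the Cebpb experiment. Interstitial or marrow-derived macrophage markers summed to 252 to 306 and 8420 to 11000 CPM, and to 1450 to 2830 and 19100 to 33400 CPM. Of the 6 monocyte markers 3 rose and 1 fell with Csf2rb deleted. The chemokine receptor gene Ccr2 was at 862 to 1366 CPM against 75.9 to 320.3, but Ly6c2, which marks Ly6Chi monocytes, was at 1.90 to 15.4 CPM against 4.74 to 13.4. In sorted wild-type Ly6Chi monocytes Ly6c2 was at 1327 to 4085 CPM. Of the plasmacytoid dendritic cell markers the 1 tested, Tcf4, rose with Csf2rb deleted (2.45 ± 0.33, adjusted p = 0.000848) and Siglech had 0 counts, and the 1 of 5 dendritic cell markers tested rose too. All 5 erythroid markers also rose, from 2100 to 3710 up to 7390 to 10500 CPM summed. With Cebpb deleted 2 of 6 monocyte markers fell and 0 rose, and 0 of 4 erythroid markers were called. The 1 plasmacytoid dendritic cell marker tested and 3 of 3 dendritic cell markers rose there. The part of these lists in the result was not tested.

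The Ly6Chi fetal monocytes, precursors of alveolar macrophages, had high levels in both genotypes and almost no difference. Of 43 genes 1 rose and none fell (1.99% and 1.64% of all genes), with a median of 0.15 against 0.01. That gene was Oas1g, an oligoadenylate synthetase, at 38.1, 57.0, 30.6 and 37.0 CPM in null cells against 18.4, 23.3 and 21.7 (log2 fold change 0.92 ± 0.25, adjusted p = 0.0493), and its call was lost in 6 of 7 fits with 1 library left out. DESeq2 called 2 genes higher. Irf7 was at 1423, 1227, 1581 and 1432 CPM in null monocytes and 1241, 1669 and 1804 in wild type. Isg15 was at 780.4, 845, 927 and 722 and 651, 618 and 918 CPM, and Stat2 at 254, 260.5, 307 and 216 and 243, 280.3 and 373. All overlapped.

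Irf9 was at 373, 298, 296 and 448 CPM in null and 431, 452 and 321 in wild-type monocytes, Usp18 at 40.2, 52.9, 56.6 and 64.3 and 47.7, 42.9 and 45.04, and Ifit3 at 50.8, 65.1, 93.9 and 48.1 and 68.3, 75.0 and 71.2. Oasl2, called in most other deletions, was at 118, 172, 106 and 122 and 133, 129.9 and 89.7 CPM and overlapped (log2 fold change 0.13 ± 0.20, adjusted p = 0.821). Zbp1 was at 344, 284, 448 and 286 and 362, 438 and 548 CPM, and Cxcl10 at 175, 114, 315 and 108 and 170.0, 174 and 113. Gbp2 was at 39.0, 44.8, 35.9 and 59.2 and 27.0, 32.1 and 23.7 CPM, above all controls without passing (adjusted p = 0.132), and Igtp at 128, 109, 114 and 139 and 123, 109 and 60.7. Every other gene of this paragraph overlapped between the genotypes. Cebpb was reduced in these monocytes as in the macrophages, from 2961, 3207 and 2076 to 78.6, 99.7, 62.6 and 55.2 CPM.

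In the chimeras, where mutant and wild-type donor cells shared host lungs, the list did not rise as a whole. At 5 weeks 5 of 44 genes rose and 4 fell (12.1% and 10.5% of all genes), with a median of -0.13 against 0. At 10 weeks 9 rose and 3 fell (24.5% and 21.1%), with a median of 0.11 against 0.03. The log2 fold change differed between the times for 5 genes, all higher at 10 weeks (7.57% higher and 5.97% lower over all genes). With DESeq2 it differed for 9 (8 higher, 1 lower). Cmpk2 and Ifi204 were called lower at 5 weeks and were not called at 10 weeks.

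At 5 weeks Mx1 was at 29.1, 17.7, 34.8 and 36.6 CPM in mutant and 13.6, 11.1 and 12.2 in wild-type donor cells (log2 fold change 1.26 ± 0.37, adjusted p = 0.0215). Oasl1 was at 51.8, 43.4, 62.7 and 91.2 and 33.6, 31.1 and 42.3 CPM (log2 fold change 0.80 ± 0.26, adjusted p = 0.0362), and Trim30a, an inhibitor of Toll-like receptor signalling, at 15.0, 12.8, 14.6 and 13.3 and 8.63, 7.92 and 8.62 (log2 fold change 0.73 ± 0.19, adjusted p = 0.01). These rose in all mutant libraries above all wild-type libraries. Cmpk2 was at 1.39, 0.223, 0.667 and 0.439 and 1.17, 2.604 and 3.08 CPM (log2 fold change -1.67 ± 0.58, adjusted p = 0.0468), Ifi204 at 19.3, 16.7, 24.1 and 18.4 and 24.4, 43.5 and 87.8 (log2 fold change -1.40 ± 0.31, adjusted p = 0.00459) and the synthetase Oas2 at 13.2, 10.2, 10.8 and 21.0 and 25.8, 25.6 and 52.8 (log2 fold change -1.33 ± 0.34, adjusted p = 0.0105). Ifi204 and Oas2 lay below all wild-type libraries, and the third wild-type library was the highest of its group in all 3. Irf9 was at 116, 114, 105 and 131 and 70.3, 77.7 and 90.3 CPM (log2 fold change 0.55 ± 0.17, adjusted p = 0.0277). With 1 library left out, the calls of Oasl1 and Cmpk2 were lost in 5 of 7 fits and those of Mx1 and Irf9 in 4 of 7. With the replicate number as a block, the calls of Oasl1, Cmpk2 and Irf9 were lost (adjusted p = 0.109, 0.139 and 0.053).

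Irf7 was at 78.8, 57.2, 79.9 and 154 CPM in mutant and 63.5, 81.4 and 135 in wild-type cells at 5 weeks, and Stat2 at 75.9, 101, 108 and 154 and 59.1, 83.8 and 119. Isg15 was at 139.9, 143, 188 and 237 and 74.2, 106 and 124 CPM, above all wild-type libraries without passing (adjusted p = 0.17). Usp18 was at 21.3, 18.1, 29.1 and 23.0 and 16.0, 25.3 and 27.4 CPM, and Ifit3 at 9.47, 5.13, 8.34 and 11.3 and 8.26, 10.5 and 17.2. Oasl2 was at 10.4, 11.7, 10.3 and 11.8 and 10.1, 13.1 and 16.5 CPM, the only Cebpb deletion with a fold change below 0 for it (log2 fold change -0.26 ± 0.26, adjusted p = 0.515). Zbp1 was at 44.2, 59.8, 67.0 and 108 and 52.6, 62.5 and 114 CPM, and Cxcl9 at 72.6, 138, 179 and 352 and 67.2, 117 and 255. Cxcl10 was at 169, 183, 168 and 231 and 256, 215 and 285 CPM, Gbp2 at 47.7, 81.7, 71.9 and 103 and 43.3, 62.1 and 127, and Igtp at 32.0, 38.9, 35.5 and 65.5 and 30.8, 41.0 and 71.8. Apart from Isg15, the groups of these genes overlapped.

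At 10 weeks Isg15 was at 56.9, 229 and 255 CPM in mutant and 29.0, 47.3, 24.7 and 34.2 in wild-type cells (log2 fold change 2.43 ± 0.41, adjusted p = 0.000353). Bst2 was at 309, 564 and 627 and 162, 132, 120.5 and 115 CPM (log2 fold change 1.91 ± 0.20, adjusted p = 1.41e-06), and Slfn5 at 11.2, 21.0 and 16.98 and 2.66, 6.69, 4.43 and 6.13 (log2 fold change 1.81 ± 0.30, adjusted p = 0.000132). All mutant libraries were above all wild-type libraries in these 3, and the calls of all 3 held with any 1 library left out. Usp18 was at 9.16, 4.09 and 10.0 and 3.10, 3.92, 2.89 and 3.56 CPM (log2 fold change 1.19 ± 0.31, adjusted p = 0.00547), and Cxcl10 at 133, 172 and 81.1 and 85.7, 108, 63.2 and 61.5 with overlap (log2 fold change 0.70 ± 0.23, adjusted p = 0.0209). Oas2 was at 5.14, 5.82 and 1.89 and 15.8, 15.9, 8.87 and 17.4 CPM (log2 fold change -1.73 ± 0.40, adjusted p = 0.00242), below all wild-type libraries as at 5 weeks. Dhx58, a regulator of RNA sensing, was at 12.2, 14 and 7.69 and 12.8, 21.7, 22.9 and 20.6 CPM (log2 fold change -0.76 ± 0.24, adjusted p = 0.0155), and Parp14 at 24.9, 23.2 and 25.0 and 34.9, 35.3, 42.8 and 38.4 (log2 fold change -0.63 ± 0.22, adjusted p = 0.0274). The calls of Cxcl10 and Parp14 were lost in 4 of 7 such fits.

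Irf7 was at 26.0, 31.7 and 26.0 CPM in mutant and 25.6, 25.8, 23.1 and 32.6 in wild-type cells at 10 weeks, and Stat2 at 40.0, 32.4 and 35.3 and 47.1, 59.8, 44.7 and 65.9. Irf9 was at 60.9, 41.7 and 51.2 and 47.9, 33.0, 32.2 and 49.3 CPM, Ifit3 at 2.25, 5.37 and 3.05 and 3.55, 4.84, 2.31 and 3.56, and Oasl2 at 3.54, 5.73 and 2.03 and 2.44, 3.23, 1.93 and 1.98. Stat2 lay below all wild-type libraries without passing (adjusted p = 0.0582), and the other 4 overlapped. Zbp1 was at 25.6, 37.3 and 19.4 and 38.4, 46.6, 33.5 and 35.6 CPM, and Cxcl9 at 25.1, 41.6 and 8.27 and 30.6, 37.8, 13.5 and 29.7. Gbp2 was at 17.4, 31.8 and 17.9 and 20.4, 30.9, 13.7 and 19.0 CPM, and Igtp at 20.7, 21.4 and 19.3 and 23.9, 26.5, 21.6 and 22.9; none of these 4 was called.

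Between 5 and 10 weeks the mutant effect differed for Cmpk2 by 3.27 ± 0.88 (adjusted p = 0.0219), for Ifi204 by 1.63 ± 0.45 (adjusted p = 0.0257), for Bst2 by 1.61 ± 0.28 (adjusted p = 0.00154) and for Cxcl10 by 1.12 ± 0.32 (adjusted p = 0.031), the last lost in 8 of 14 fits with 1 library left out. With the replicate block the differences of Cmpk2 and Cxcl10 did not pass (adjusted p = 0.116 and 0.0567). The labels do not say whether mutant and wild-type libraries of the same number came from 1 host. At 10 weeks the 3 same-numbered pairs deviated together slightly (correlations of 0.098 to 0.124), and each of these wild-type libraries was closest to the mutant library of its own number. The wild-type donor cells of 5 weeks had a summed level of 3996 to 7216 CPM, above the 2508 to 3037 CPM of 10 weeks. Those of 5 weeks also held 10 counts of Ifng and 14 of Ifnb1, and those of 10 weeks 0 of each. The part of these counts in the summed level was not tested. Mx1 was the only gene of the list called higher at both times, 20.0% of the 5 called higher at 5 weeks and 11.1% of the 9 at 10 weeks. The same overlap was not counted over all genes. At 5 weeks the count of 9 fell to 2 when wild-type replicate 2 was left out, to 4 when wild-type replicate 3 was, and to 5 when mutant replicate 3 or 4 was. The difference between the times fell from 5 genes to 3 without wild-type replicate 3 of 5 weeks or mutant replicate 2 of 10 weeks. Alveolar macrophage markers summed to 4060 to 9180 CPM in wild-type and 1380 to 1660 in mutant cells at 5 weeks, and to 15400 to 27000 and 834 to 1970 CPM at 10 weeks. Interstitial or marrow-derived macrophage markers summed to 16500 to 30600 and 39000 to 57900 CPM at 5 weeks, and to 9370 to 14800 and 24800 to 40500 CPM at 10 weeks. The part of these lists in the result was not tested. Of 30 signalling genes 8 rose and 5 fell at 5 weeks and 9 and 6 at 10 weeks, and of 64 further induced genes 16 and 7, and 18 and 3.

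Some genes of the list came up repeatedly. Over 11 Cebpb deletions with libraries of their own (CD11b low cells standing for the first null set), Oasl1, Oasl2 and Slfn5 were called higher in 7 each. They were tested in 9, 10 and 10 of the 11. Slfn5 and Oasl1 had a positive fold change wherever they were tested, 0.11 to 6.55 and 0.56 to 6.33 on the log2 scale, and Oasl2 in all but 1. Ifi27l2a and Lgals3bp were called higher in 6, and Gbp3, Ifi44, Irgm1, Mx1, Oas1a, Oas2 and Usp18 in 5. Irgm1, an immunity-related GTPase, was positive in all 11. Irf7, Stat2, Zbp1, Gbp2 and Ifit3 were called higher in 2 each, facility 2 and the chromatin-matched set. Cxcl9 and Samhd1 were never called higher, and were called lower in 1 and 2. For 40 genes of the list, facility 2 and the chromatin-matched set gave 2 of these calls. Up to 24.9% of all genes tested were called higher in a single deletion (facility 2). The same count over the 11 deletions was not made for all genes, so these counts have no background to be read against.

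Of the 12 genes called higher in CD11b low null cells, 9 were among the 11 of 44 called higher at facility 1 (75.0% and 81.8%). The same overlap was not counted over all genes, so these shares have no background to be read against. Facility 2, the chromatin-matched set and Csf2rb null cells had nearly the whole list called higher, so that an overlap with them carries little information. Across genes, the log2 fold changes of facility 2 went with those of the chromatin-matched set (Pearson r 0.83, Spearman rho 0.87, 44 genes), of CD11b low cells (0.85 and 0.86, 38 genes) and of Csf2rb null cells (0.72 and 0.77, 41 genes). For Cebpb null E18 cells against the 4 adult null comparisons, r ran from 0.02 to 0.20. Genes of one list are not independent, so these are descriptions.

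Peak lists were available for alveolar macrophages cultured with interferon alpha and GM-CSF, and for C/EBPβ chromatin immunoprecipitation in wild-type cells. In the culture, cells of MxCre controls (2 lists) and MxCre Cebpb null cells (3 lists) were profiled for open chromatin by ATAC-seq. A peak lay within 1 kb of the start of 31 or 32 of the 34 genes with a known start in each of the 5 ATAC lists (91.2% or 94.1%), against 89.0% to 91.8% of the 9283 tested genes. Cxcl9 had no such peak in any list. The ATAC lists of both genotypes thus held a peak at nearly every one of these promoters, as at most genes tested, and gave no comparison of their height here.

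C/EBPβ peaks lay within 1 kb of 8 of the 34 starts in the first list (23.5%, 95% exact interval 10.7 to 41.2) and 5 in the second (14.7%, 4.95 to 31.1). The shares were 40.8% and 29.8% of the tested genes, within these intervals, and 19.2% and 14.1% of all genes with a promoter window. Bst2, Gbp2, Herc6, Isg20 and Samhd1 had one in both lists, Ddx58, Gbp3 and Ifih1 in 1 list, and 26 in neither. Of the genes called higher most often, Oasl1, Oasl2 and Slfn5 had none within 1 kb. Within 5 kb Slfn5 had a peak in both lists, and Oasl1 and Oasl2 had one in neither. Within 5 kb the shares were 44.1% and 35.3%, against 51.8% and 40.6% of the tested genes and 27.4% and 21.7% of all. The peaks are the authors' calls per library, and a peak near a start does not show which gene it acts on.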

How the data were processed

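RNA was measured in 99 libraries of sorted mouse cells with MARS-seq, a 3′ poly(A) method, per the labels' protocols. The deposited gene tables hold raw counts per gene, and the submitters' processing notes name STAR 2.6.1a, featureCounts 1.6.3 and DESeq2 1.26 with builds GRCm38 and mm10. Neither the collapsing of molecular identifiers nor strand use is stated in these sources, so overlapping genes and near-identical members (the Oas1, Ifit3 and Gbp families) are uncertain. The deposited peak lists hold, per the labels, a ratio (fold enrichment), a −log10 p or q value and a score for each peak; the notes name MACS2 2.2.7.1 and BWA 0.7.17. Peaks were used for position alone.

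Each experiment was fitted on its own with edgeR 4.0.16 (R 4.3.3; TMM scaling, filterByExpr with a minimum count of 10, robust quasi-likelihood test), with p-values adjusted by Benjamini-Hochberg over all genes tested and called under 0.05. Differences between effects were interaction contrasts; those across sets used joint fits. The procedure was tested on simulated data. Alternatives were DESeq2 1.42.0, its size factors, no filter, a replicate block, only the groups compared and single libraries left out; leaving out replicates 4 of the first null and Lip sets was chosen after seeing the data. No 2 libraries of a group were identical, and the lowest reduced chi-square between them was 1.83. Floors of 3 counts and all intervals cover counting error only.

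Per-library levels are given for 12 genes chosen by role, and folds for these where called and for the 3 largest called rises and falls of each comparison. The 46 genes, the marker lists and the pathway lists were chosen with earlier results of these data known. Promoters came from RefSeq (GRCm38.p6); 34 of 46 genes matched by symbol.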

Additional observations from a re-analysis of the deposited data

Results flagged for a closer look

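Of 168 sets of levels checked, 1 gene or the summed level in 1 group of 4 or more libraries, 24 had 1 library far from the others of its group by Dixon's criterion, where chance gives about 1 in 20.

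In CD11b low Lip cells the fourth library stood above the rest for 5 genes and the sum. Irf7 was at 147 CPM there, against a next highest of 7.40, and Oasl2 at 54.2 against 5.27. Stat2 was at 141 CPM, Ifit3 at 11.4 and Usp18 at 7.20, and the summed level at 5870 CPM against 3022. The fourth CD11b high Lip library stood apart for 7 genes and the sum: Irf7 was at 126 CPM against 15.4, Oasl2 at 61.1 against 17.3 and Zbp1 at 56.3 against 20.2. Irf9 was at 57.1 CPM there, Igtp at 24.1, Ifit3 at 8.04, Cxcl9 at 5.63 and the summed level at 4805. The shared number of these libraries is a label; whether they came from the same animal was not tested.

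In the chromatin-matched Lip set, the third Lip library was far above the others for Cxcl10 (14.2 CPM) and Gbp2 (40.7 CPM), and the fourth for Stat2 (159 CPM). The fourth control of that set had Irf7 at 111 CPM, against a next highest of 27.9. The second control of the Csf2rb set stood above its group for Irf7 (99.1 CPM) and Stat2 (90.7 CPM). The second control of the first null set was low for Stat2 (34.2 CPM), and the first CD11b high null library was low for Ifit3 (0.762 CPM). Cxcl9 was high in the first Cebpb null E18 macrophage library (4.05 CPM) and in the second null Ly6Chi library (0.678 CPM, the others being at 0).

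By the test of the difference itself, the effect of deletion differed between facilities for 20 genes and between CD11b low cells and facility 2 for 19. It differed between the E18 mutants for 29 and between 5 and 10 weeks after transfer for 5. Between males and the mean of the 2 female facilities it differed for 14, where sex and facility cannot be told apart.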

How the results depend on the processing

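No reported value that was called changed sign under an alternative. With DESeq2 size factors all 26 counts stayed within 1.5 times of the reported ones. With the DESeq2 test 4 of 26 moved: males from 5 to 8 genes, CD11b high Lip cells from 4 to 7, Ly6Chi monocytes from 1 to 2 and the difference between 5 and 10 weeks from 5 to 9. Without the count filter 6 moved: heterozygotes from 0 to 1, CD11b low against facility 1 from 0 to 6, CD11b low against facility 2 from 19 to 37, LyzM Cre from 0 to 2, CD11b low Lip from 2 to 5 and CD11b high Lip to 7. With only the groups compared in the fit, CD11b low null cells went from 12 to 6, males to 11 and CD11b high Lip cells to 7. With all 4 E18 groups the Cebpb count was 8 in place of 14. Without both replicates 4 CD11b low null cells had 6 calls, and Lip cells 8 (CD11b low) and 12 (CD11b high).

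With the replicate block LyzM Cre had 1 call, CD11b low Lip cells 9 (2 higher, 7 lower) and CD11b high Lip cells 16 (7 higher, 9 lower), and the other 23 counts stayed within 1.5 times. The labels tie no number to an animal, and same-numbered mutant and control libraries did not deviate together throughout (for example -0.023 to 0.133 over 3 pairs in the chromatin-matched null set). The CD11b low and high Lip gates, which were not compared with each other, did (0.105 to 0.248 over 4 pairs, each closest to its own number). At 10 weeks the chimera libraries came near to it (0.098 to 0.124 over 3 pairs, each closest to its own number), and the block left 13 calls there in place of 12, 8 in place of 9 at 5 weeks and 4 in place of 5 between the times.

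With 1 library left out, the number of calls ranged from 6 to 13 in CD11b low and 12 to 17 in CD11b high null cells, 6 to 11 at facility 1, 39 to 42 at facility 2 and 1 to 6 in males. It ranged from 15 to 28 between facilities, 3 to 17 between sexes, 32 to 42 between null females and 9 to 23 between CD11b low cells and facility 2. It was 0 to 9 with LyzM Cre, 3 to 7 with CD11c Cre, 1 to 4 and 3 to 6 in CD11b low and high Lip cells, 6 to 14 and 37 to 41 in Cebpb and Csf2rb null E18 cells and 22 to 32 between them. It was 0 to 2 in Ly6Chi monocytes, 2 to 8 at 5 weeks, 8 to 13 at 10 weeks, 3 to 7 between the times, 33 to 43 in the chromatin-matched null set and 0 to 9 in its Lip set. It stayed at 0 between the CD11b gates, in heterozygotes, between the female controls and between CD11b low cells and facility 1. Of 137 calls of named genes, 87 held in every such fit and 118 under every other alternative. Where a count or call moved, the cause was not tested, and the folds of genes near 3 counts per library are limited by depth. The comparison between sexes set males, whose facility is not given, against the mean of the 2 female facilities. Within 5 kb in place of 1 kb, 100% of the starts had an ATAC peak in each list, and 44.1% and 35.3% a C/EBPβ peak.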
